A study of Mus musculus with 4 samples.

Results

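Homologous recombination, Fanconi anemia and damage checkpoint genes were examined in mouse oocytes before culture and after culture with or without tubastatin A (TubA). The compound was designed against HDAC6, a deacetylase of the cytoplasm. The genes were a list of 32 fixed by name, and all 32 were found among the 21957 genes of the expression table. Each condition was 1 RNA-seq library of 100 pooled oocytes from B6D2F1 (C57BL/6 x DBA) females aged 6 to 8 weeks, as the methods of the study describe it. The series' title speaks of single cells instead, and the pools are assumed here. GV oocytes, still in prophase of meiosis I with an intact nucleus, were taken at 0 h, untreated. MII oocytes were cultured without TubA for 12 h and were kept if a polar body was out, and whether they received the DMSO in which TubA was dissolved is not given in the sources used here. The libraries named TubA10 and TubA20 came from oocytes cultured for 12 h with TubA, and the sources do not say whether oocytes were selected among them. Their titles give 10 and 20 μM, as does the description of the treatment, while a separate field of the labels gives 20 μM for TubA10 and 11 μM for TubA20. The doses of the titles are used here. The MII sample is called an embryo in its title, although the study describes it as an oocyte.

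Homologous recombination mends broken DNA by copying an intact sister or homologous strand. The ends are first trimmed to single strands by the MRE11-RAD50-NBS1 complex and CtIP, then BRCA1, PALB2 and BRCA2 prepare them for strand exchange, and further proteins help the coated strand find and invade its template. The Fanconi core complex attaches ubiquitin to FANCD2 and FANCI so that strands joined by a crosslink can be repaired, while ATM and ATR signal damage through CHK2 and CHK1. In mammals the programmed breaks of meiosis are repaired in the fetal ovary, before the stages sampled here. A fully grown oocyte makes almost no new RNA until after fertilization, so its transcripts are largely stored maternal RNA. Poly(A) tails of stored transcripts lengthen or shorten as the oocyte matures.

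With 1 library per condition there was no replicate to set a difference against, so no p-value is given for any gene or list. Levels are in FPKM, which is already divided by transcript length, so levels of different genes may be compared. Changes are log2 ratios of FPKM + 1, and 2-fold corresponds to a log2 change of 1. The pools hold whole oocytes, so fewer transcripts per oocyte and shorter poly(A) tails that escape selection with oligo(dT) cannot be told apart. Read counts are not used here. From the lowest values of genes with 1 transcript, the depth relative to GV was estimated at 1.58 in TubA10, 0.884 in TubA20 and 1.46 in MII, which puts the middle gene of the list at 463 fragments in GV, 756 in TubA10, 501 in TubA20 and 798 in MII. The total reads that the study prints are higher in TubA20 than in GV, so this rough estimate and those totals differ in order. All 12 oocyte markers were at 197 FPKM or more in every library, and *Zp2* and *Zp3*, which encode proteins of the oocyte's coat, were lower past 2-fold in TubA20 than in MII, with log2 changes of −1.41 and −1.21. Of the 12, 6 were higher and 6 lower in TubA20 than in MII, with a sum of 33016 FPKM in TubA20 and 29427 in MII. Of 12 cumulus and granulosa markers, *Foxl2* was at 0 in all 4 libraries, and the sum of the 12 was 18.3 FPKM in GV, 19.7 in TubA10, 23.6 in TubA20 and 20.8 in MII, most of it from *Cyp19a1* and *Nr5a2*. *Tnfaip6* and *Ptx3*, genes of cumulus expansion, were listed at 0 in GV and were at 1.57 and 1.19 FPKM in TubA20 and 0.338 and 0.555 in MII, while *Inhba* went from 0.956 FPKM in GV to 0 in TubA20 and *Fshr* from 0.417 to 0. The part of other cells in the differences was not tested. Of 6 blood markers, none exceeded 0.0347 FPKM.

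The list spanned a wide range of levels. In GV the lowest gene was at 0.494 FPKM, the median at 8.94 and the highest at 159, and in TubA20 these values were 0.230, 8.41 and 377. The median was 8.88 FPKM in TubA10 and 9.86 in MII. A mean of at least 1 FPKM over the 4 libraries was reached by 30 of the 32 genes, and *Dmc1* and *Fancf* stayed below it. Across all 10199 genes that reached this mean, the medians were 12.3 FPKM in GV, 11.8 in TubA10, 10.6 in TubA20 and 11.5 in MII, so the middle of the list lay somewhat below that of expressed genes in each library.

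**Figure D1:**
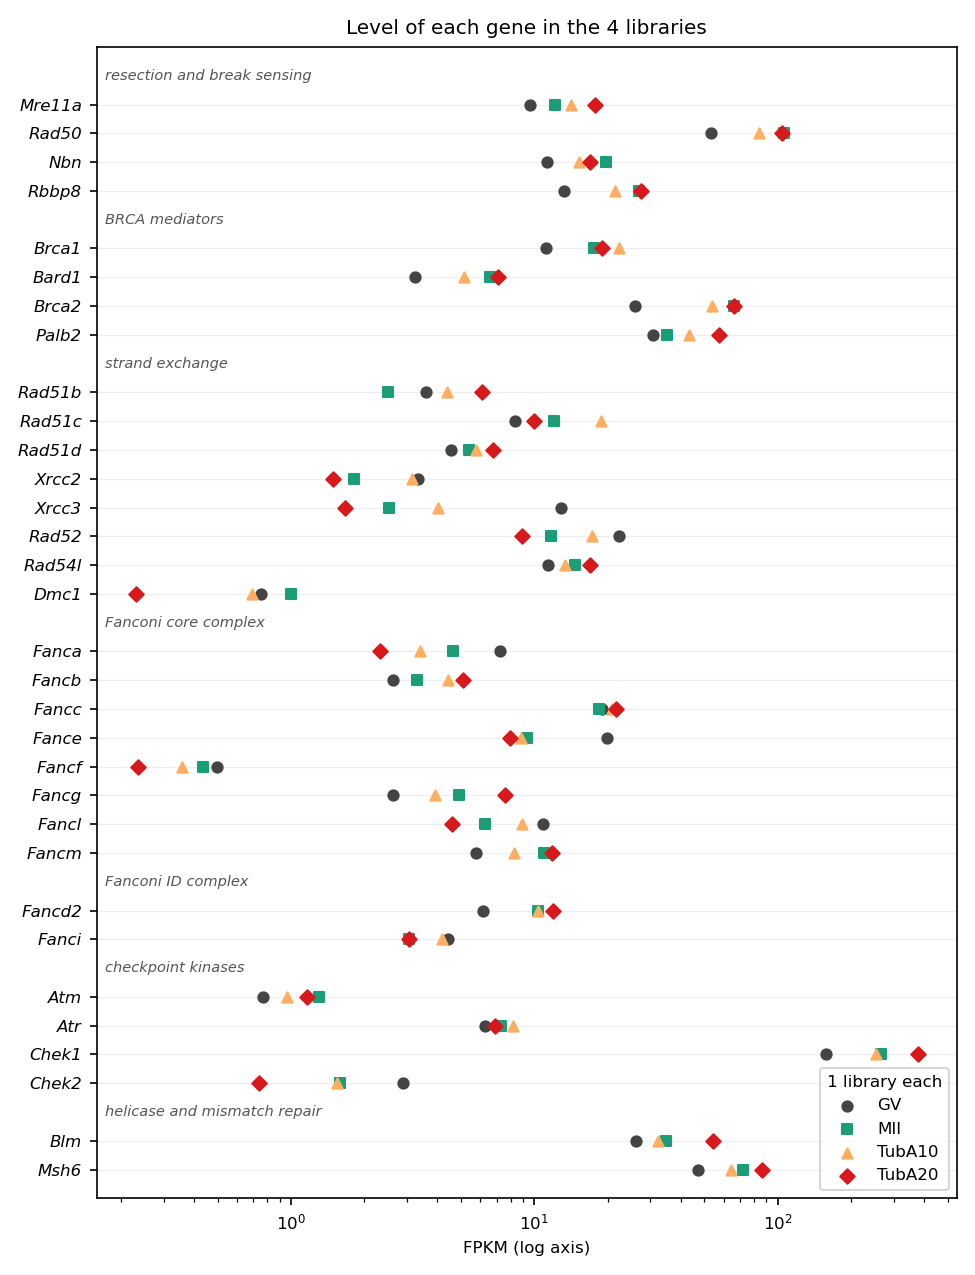
The level of each of the 32 genes is plotted in FPKM on a log axis, grouped by role, with 1 point for each library. *Chek1* lies to the right of every other gene in all 4 libraries, from 159 FPKM in GV to 377 in TubA20, and *Dmc1* and *Fancf* lie at the left.

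The elements that drive lengthening of poly(A) tails in a maturing oocyte lie near the end of the transcript, so the 3′ ends of the 32 principal transcripts (GENCODE vM21, GRCm38) were searched. The cytoplasmic polyadenylation element was taken as TTTTAT or TTTTAAT within the last 100 bases of the 3′ UTR, on the strand of the RNA. It was present in 6 of the 32 genes (18.8%), where 19.7% of 10135 genes with a mean of at least 1 FPKM had it. A polyadenylation signal, AATAAA or ATTAAA, was found within the last 40 bases in 21 of the 32 and in 75.9% of all genes. *Brca2* and *Fance* had both elements, 2 of the 32 genes, where 1614 of the 10135 had both. The sites of these genes are shown because *Brca2* had the highest change from GV to MII and *Fance* the second lowest, with the element in capitals:

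Brca2: ctacaactatcaTTTTATatacaaaataaa

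Fance: ttttgtaacagTTTTAATaaaaagaagaca

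In *Brca2* the element starts 38 bases from the annotated end and the signal 26 bases from it. In *Fance* the element starts 28 bases from the end and shares 3 bases with the signal. The others with the element were *Bard1*, *Rad54l*, *Dmc1* and *Fancm*, without a signal in the last 40 bases of the annotated transcript. The median log2 change from GV to MII was 0.58 in the 6 genes with the element and 0.22 in the 26 without, and over all genes it was 0.42 in 1999 with it and −0.03 in 8136 without. From GV to TubA20 these medians were 0.73 and 0.52 in the list and 0.60 and −0.03 over all genes. From MII to TubA10 the order was reversed, with −0.27 and 0.11 in the list and −0.11 and 0.05 over all genes. From MII to TubA20 the medians were 0.05 and 0.01 in the list and 0.14 and −0.03 over all genes. A match of these letters is a description of the annotated sequence and does not show that the element is used.

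*Chek1*, whose kinase relays signals of ATR and holds back CDK1, was the most abundant gene of the list. It lies on chromosome 9 (GRCm38, 36708482 to 36727065, minus strand). By its mean it stood at the 98.0th percentile of all 21957 genes, which include genes that were not detected. *Chek1* was at 159 FPKM in GV, 254 in TubA10, 377 in TubA20 and 267 in MII. All 3 cultured libraries were above GV, and the one with 20 μM TubA was highest. From GV the log2 change was 0.74 to MII and 1.24 to TubA20, past 2-fold in the latter, and between MII and TubA20 it was 0.50.

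*Chek2* (bases 110839979 to 110874145 of chromosome 5), the kinase that relays signals of ATM, had its extremes reversed. *Chek2* was at 2.89 FPKM in GV, 1.54 in TubA10, 0.738 in TubA20 and 1.59 in MII. GV was highest and TubA20 lowest, with an estimated 20.4 fragments behind the TubA20 value. The log2 change in TubA20 was −1.16 against GV and −0.58 against MII. A pseudocount of 0.1 FPKM put the latter at −1.02, so whether *Chek2* passes 2-fold between MII and TubA20 depends on how low values are treated.

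The upstream kinases varied less. *Atr* was at 6.30 FPKM in GV, 8.15 in TubA10, 6.92 in TubA20 and 7.30 in MII. *Atm* was at 0.768, 0.962, 1.17 and 1.30 FPKM in the same order of libraries. Neither passed 2-fold in any of the 4 comparisons, and the widest log2 change of the pair was 0.38, for *Atm* in MII against GV. *Atm* lies near 1 FPKM, and with a pseudocount of 0.1 FPKM this change was 0.69, and that in TubA20 against GV 0.54 in place of 0.29.

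The genes for break sensing and end trimming were all higher after culture. *Rad50*, the coiled-coil ATPase of the MRE11 complex, was at 53.1 FPKM in GV, 83.6 in TubA10, 104 in TubA20 and 106 in MII. *Rbbp8*, which encodes the resection factor CtIP, was at 13.2 FPKM in GV, 21.5 in TubA10, 27.4 in TubA20 and 27.0 in MII. In both genes GV was lowest, TubA10 came next, and TubA20 and MII lay close together. For *Rad50* the log2 changes against GV were 0.99 in MII and 0.95 in TubA20, and for *Rbbp8* they were 0.98 and 0.997, all just under 2-fold. Both genes passed it from GV to MII with equal FPKM sums (1.12 for *Rad50* and 1.10 for *Rbbp8*), with equal *Gapdh* or with the smaller pseudocount.

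*Nbn*, the gene of NBS1, which brings ATM to breaks, was at 11.3 FPKM in GV, 15.3 in TubA10, 17.0 in TubA20 and 19.7 in MII. *Mre11a*, the nuclease of the complex, was at 9.58 FPKM in GV, 14.1 in TubA10, 17.8 in TubA20 and 12.1 in MII. The partners thus differed in which cultured library was highest, MII for *Nbn* and TubA20 for *Mre11a*. The log2 change from MII to TubA20 was −0.20 for *Nbn* and 0.52 for *Mre11a*.

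*Brca2*, a mediator of strand exchange and a carrier of the element shown above, was the only gene of the list past 2-fold upward between GV and MII, although *Rad50* and *Rbbp8* joined it under the settings just named, *Bard1* with equal *Gapdh* or the smaller pseudocount, and *Fancm* with equal *Gapdh*. It lies on chromosome 5 (150522630 to 150570329). Its level was 26.0 FPKM in GV, 53.9 in TubA10, 65.9 in TubA20 and 66.1 in MII. The MII and TubA20 values were almost equal, with a log2 change of 1.31 against GV in each, and TubA10 lay below them. *Palb2*, which bridges BRCA1 and BRCA2, was at 30.7 FPKM in GV, 43.3 in TubA10, 57.3 in TubA20 and 35.2 in MII. Here TubA20 stood apart from MII, by 0.69 on the log2 scale, and MII lay closest to GV.

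*Brca1* and *Bard1* encode the partners of a ubiquitin ligase. *Brca1* was at 11.2 FPKM in GV, 22.4 in TubA10, 19.1 in TubA20 and 17.6 in MII. *Bard1* was at 3.23 FPKM in GV, 5.15 in TubA10, 7.12 in TubA20 and 6.57 in MII. Both were lowest in GV, and neither differed from MII to TubA20 by more than 0.11 log2. That small difference turned negative with equal FPKM sums (−0.03 for *Brca1*) or equal *Gapdh* (−0.04), so it has no settled direction. All 4 resection genes and all 4 BRCA genes were higher in MII and in TubA20 than in GV, a direction kept under the 3 scalings of the libraries and with the smaller pseudocount. Of the 10199 genes with a mean of at least 1 FPKM, 5404 were higher than GV in MII and 5457 in TubA20. The GV library is shared by both comparisons, and the difference of these 8 genes from all genes was not tested.

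The strand exchange genes did not move together. *Xrcc3*, whose protein works with that of *Rad51c*, had the largest change of the list. It lies on chromosome 12 (111803192 to 111813873). Its level was 12.9 FPKM in GV, 4.02 in TubA10, 1.67 in TubA20 and 2.53 in MII. GV was far above the 3 cultured libraries, and TubA20 was lowest. The log2 change against GV was −1.98 in MII and −2.38 in TubA20, and TubA20 rested on an estimated 49.5 fragments. *Rad52* (bases 119902698 to 119922828 of chromosome 6), an annealing protein, was at 22.3 FPKM in GV, 17.2 in TubA10, 8.90 in TubA20 and 11.7 in MII. Its order was the same, with a log2 change of −1.23 in TubA20 against GV and −0.88 in MII. With the median change of all genes set to 0, *Rad52* passed 2-fold in MII as well, at −1.01.

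*Rad51b* was the only gene of the list past 2-fold between MII and TubA20 at a pseudocount of 1 FPKM. The gene, whose protein is a partner of that of *Rad51c*, lies on chromosome 12 (79297282 to 79814690). Its level was 3.58 FPKM in GV, 4.39 in TubA10, 6.07 in TubA20 and 2.52 in MII. MII was lowest and TubA20 highest, and both TubA libraries were above GV and MII. The log2 change against MII was 0.62 in TubA10 and 1.01 in TubA20. The second value was at the threshold and fell below it under each of the 3 scalings, to between 0.89 and 0.92.

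The other genes of these complexes had other orders. *Rad51c*, whose product is in the complexes of both *Rad51b* and *Xrcc3*, was highest in TubA10, at 18.8 FPKM, against 8.30 in GV, 9.93 in TubA20 and 12.1 in MII. *Xrcc2* was at 3.32 FPKM in GV, 3.14 in TubA10, 1.49 in TubA20 and 1.81 in MII. *Rad51d*, its partner, was at 4.54, 5.78, 6.74 and 5.39 FPKM in the same libraries. *Xrcc2* was therefore lower and *Rad51d* higher in TubA20 than in GV, with log2 changes of −0.79 and 0.48. Neither passed 2-fold at a pseudocount of 1 FPKM, and *Xrcc2* did so at 0.1 FPKM, with −1.10.

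*Rad54l*, which encodes a motor protein of strand exchange, was at 11.4 FPKM in GV, 13.3 in TubA10, 16.9 in TubA20 and 14.8 in MII. *Dmc1*, which acts only in meiosis, was at 0.751 FPKM in GV, 0.691 in TubA10, 0.230 in TubA20 and 1.001 in MII. TubA20 was lowest for *Dmc1* with an estimated 6.21 fragments, so the size of its changes is uncertain. The log2 change from MII to TubA20 was −0.70, and −1.74 with a pseudocount of 0.1 FPKM. Of the 8 strand exchange genes, 4 were higher and 4 lower in TubA20 than in GV, and 4 were higher and 4 lower in MII.

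In the Fanconi core complex, the genes of a pair of subunits that bind each other went opposite ways. *Fanca* (bases 123268300 to 123318576 of chromosome 8) was at 7.22 FPKM in GV, 3.38 in TubA10, 2.31 in TubA20 and 4.65 in MII. *Fancg* (bases 43002343 to 43010506 of chromosome 4), whose protein binds FANCA, was at 2.62 FPKM in GV, 3.92 in TubA10, 7.60 in TubA20 and 4.91 in MII. TubA20 was the lowest library for *Fanca* and the highest for *Fancg*, with GV at the other end in each case. The log2 changes from GV to TubA20 were −1.31 and 1.25, and from MII to TubA20 they were −0.77 and 0.54.

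*Fance* (bases 28313519 to 28326572 of chromosome 17), which helps dock FANCD2 and whose element is also shown above, was at 20.0 FPKM in GV, 8.84 in TubA10, 7.92 in TubA20 and 9.34 in MII. The 3 cultured libraries were close together and all below GV. From GV its log2 change was −1.02 to MII and −1.23 to TubA20, and the first fell short of 2-fold with equal FPKM sums (−0.90) or equal *Gapdh* (−0.81). *Fancl* (bases 26386135 to 26471876 of chromosome 11), the ubiquitin ligase of the complex, was at 10.9 FPKM in GV, 8.93 in TubA10, 4.57 in TubA20 and 6.27 in MII. It passed 2-fold from GV in TubA20 (−1.09) and not in MII (−0.70). The difference between these changes is the direct change from MII to TubA20, −0.38, which did not pass 2-fold.

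*Fancc* was nearly level, at 18.9 FPKM in GV, 21.0 in TubA10, 21.7 in TubA20 and 18.4 in MII. *Fancb*, on the X chromosome, was at 2.63, 4.42, 5.10 and 3.29 FPKM in that order of libraries. *Fancm*, a DNA translocase that anchors the complex to DNA, was at 5.76, 8.25, 11.8 and 11.0 FPKM. *Fancb* and *Fancm* were lowest in GV and highest in TubA20. *Fancf* stayed between 0.236 FPKM in TubA20 and 0.494 in GV, with 4.74 to 14.4 estimated fragments, so no direction is given for it.

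The substrates of the complex also parted. *Fancd2* was at 6.15 FPKM in GV, 10.3 in TubA10, 11.9 in TubA20 and 10.4 in MII. *Fanci* was at 4.43 FPKM in GV, 4.19 in TubA10, 3.04 in TubA20 and 3.06 in MII. FANCD2 and FANCI form a clamp on DNA, and the gene of the first was lowest in GV while that of the second was highest there. The log2 changes from GV to TubA20 were 0.85 and −0.42.

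*Blm* (bases 80454733 to 80535119 of chromosome 7), the helicase mutated in Bloom syndrome, was at 26.1 FPKM in GV, 32.3 in TubA10, 54.4 in TubA20 and 34.6 in MII. TubA20 stood above the other libraries, by a log2 change of 1.03 from GV and 0.64 from MII. The change from GV fell to 0.81 with the median change of all genes set to 0. *Msh6*, which recognizes mismatches, was at 47.0 FPKM in GV, 64.6 in TubA10, 86.2 in TubA20 and 72.3 in MII. It was lowest in GV and highest in TubA20, and its log2 change between them was 0.86.

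**Figure D2:**
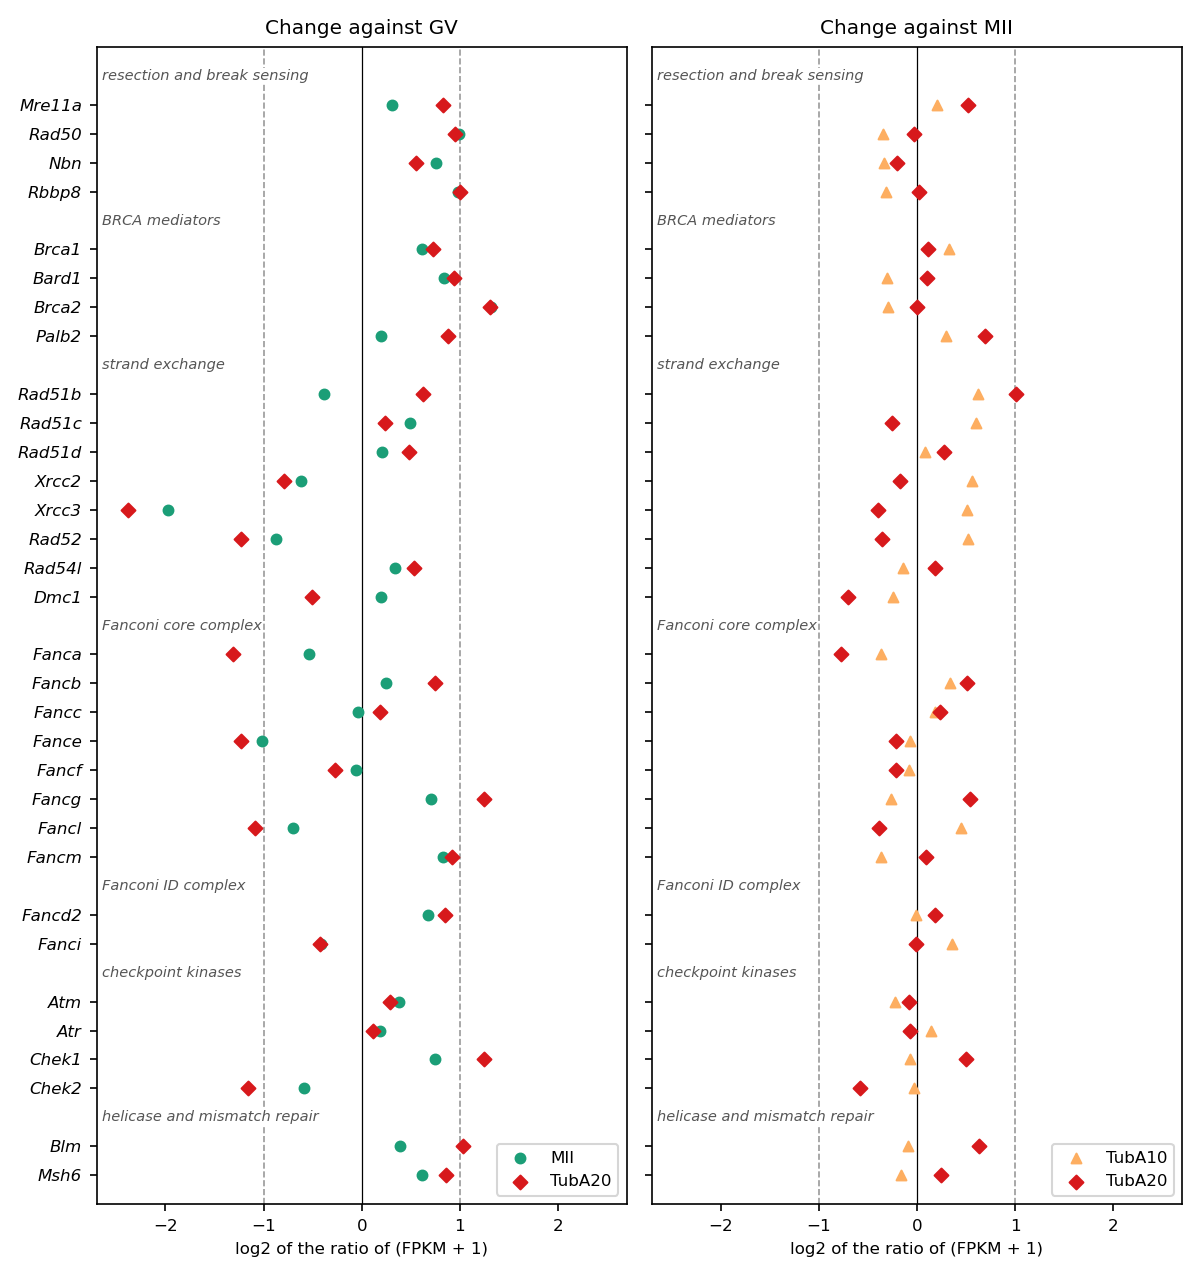
Log2 ratios of FPKM + 1 are plotted for each gene against GV on the left and against MII on the right, with dashed lines at 2-fold and 1 library behind each value. Against GV, *Xrcc3* reaches −2.38 in TubA20 and *Brca2* 1.31, and against MII only *Rad51b* in TubA20 crosses a dashed line, at 1.01.

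The whole list was then read against the background of the 10199 genes with a mean of at least 1 FPKM. From GV to MII, 1 gene of the list was higher past 2-fold (*Brca2*) and 2 were lower (*Xrcc3* and *Fance*), which is 3.13% and 6.25% of the list, where 6.5% and 17.2% of all genes were higher and lower. From GV to TubA20, 4 were higher (*Brca2*, *Chek1*, *Fancg* and *Blm*) and 6 lower (*Xrcc3*, *Rad52*, *Fanca*, *Fance*, *Fancl* and *Chek2*), or 12.5% and 18.8%, where the background was 16.2% and 23.9%. With a pseudocount of 0.1 FPKM the counts from GV to TubA20 were 7 and 8, and none of these shares is read as a property of the list. Just inside the threshold from GV to TubA20 stood *Blm* at 1.03 and *Fancl* at −1.09, and just outside it on the upward side were *Rbbp8* at 0.997, *Rad50* at 0.95, *Bard1* at 0.94 and *Fancm* at 0.92. On the downward side the next gene was *Xrcc2*, farther off at −0.79. *Rbbp8* passed it with a pseudocount of 0.1 FPKM (1.05) or equal *Gapdh* (1.06), *Rad50* with equal *Gapdh* (1.02), and *Bard1* (1.12), *Fancm* (1.02), *Xrcc2* and *Dmc1* (−1.36) with that pseudocount.

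Oocytes with and without TubA were compared at the same culture time, but not at a known common meiotic stage. MII oocytes were kept for a polar body, whereas the study reports arrest before MII at the higher dose. The part of meiotic stage in the differences from MII was not tested. Against MII, 0 of the 32 genes were higher and 0 lower past 2-fold in TubA10, with 1.05% and 0.235% of all genes. In TubA20, 1 was higher (*Rad51b*) and 0 were lower, with 0.608% and 5.22% of all genes. These counts are too small to set the list apart from all genes. With a pseudocount of 0.1 FPKM, 2 genes (*Dmc1* and *Chek2*) were lower past 2-fold in TubA20 than in MII.

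The median log2 change of the list was 0.28 from GV to MII and 0.54 from GV to TubA20, where the medians of all genes with a mean of at least 1 FPKM were 0.07 and 0.12. Under the 3 scalings the median of the list ran from 0.16 to 0.45 in MII and from 0.33 to 0.60 in TubA20. Relative to GV, 21 of the genes stood higher in MII and 11 lower, and 22 stood higher in TubA20 and 10 lower. Of the 10199 genes, 5404 stood higher in MII and 5457 in TubA20. Both comparisons share the GV library. Against MII the median was −0.05 in TubA10 and 0.01 in TubA20, with 0.01 and 0.00 (0.00369) for all genes. The TubA20 median of the list against MII turned to between −0.13 and −0.06 under the 3 scalings. The 9193 genes that reached 1 FPKM in each of the libraries had a median change from GV of 0.13 in MII and 0.19 in TubA20, and relative to these shifts the upward changes from GV are smaller and the downward ones larger. With equal FPKM sums and equal *Gapdh* these medians were 0.24 and 0.32 in MII and 0.18 and 0.25 in TubA20. Under the 3 scalings the TubA20 median of the 9193 genes against MII was between −0.12 and −0.05. The turn below 0 is therefore not particular to the list.

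Ratios of partner genes within a library do not depend on how the libraries are scaled. For 13 pairs, chosen after the levels had been seen, the FPKM of one partner was divided by that of the other. *Chek1* exceeded *Chek2* by 55.0 times in GV, 164 times in TubA10, 511 times in TubA20 and 167 times in MII. TubA10 and MII were alike in this ratio, with GV below and TubA20 above. *Rad51c* was at 0.642 times *Xrcc3* in GV and at 4.69 times in TubA10, 5.94 in TubA20 and 4.77 in MII. Here the 3 cultured libraries formed a group apart from GV.

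*Fanca* was at 2.75 times *Fancg* in GV, 0.863 times in TubA10, 0.304 in TubA20 and 0.947 in MII, so the gene in excess changed. *Fancb* went from 0.242 times *Fancl* in GV to 0.495 in TubA10, 1.12 in TubA20 and 0.525 in MII. *Fancd2* stood at 1.39 times *Fanci* in GV and at 2.46, 3.91 and 3.39 times in TubA10, TubA20 and MII. In each of these 3 pairs GV and TubA20 were the extremes.

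Other partners kept nearer to one ratio. *Rad50* was between 5.54 and 8.77 times *Mre11a*, *Brca1* between 2.68 and 4.34 times *Bard1*, and *Atr* between 5.61 and 8.47 times *Atm*. The highest over the lowest of the 4 libraries was 1.58, 1.62 and 1.51 for these pairs, against 9.30 for *Chek1* over *Chek2*, 9.24 for *Rad51c* over *Xrcc3* and 9.05 for *Fanca* over *Fancg*. The wide ratios rest in part on low values, such as *Chek2* in TubA20.

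**Figure D3:**
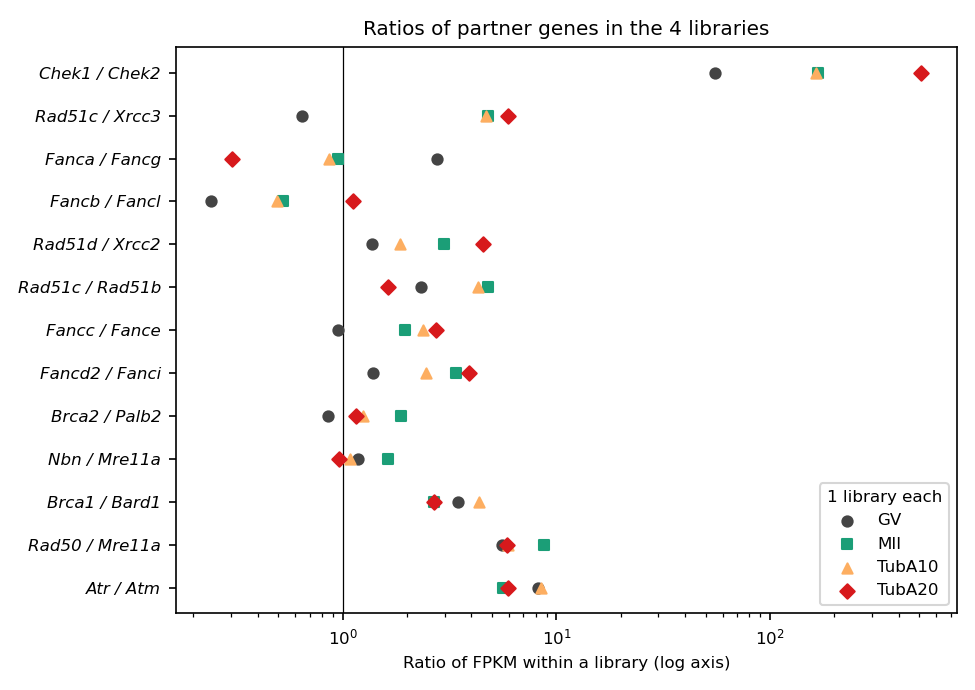
For 13 pairs of partner genes the ratio of their FPKM within each library is plotted on a log axis, ordered by how far the 4 libraries spread. *Chek1* over *Chek2* runs from 55.0 in GV to 511 in TubA20, and *Atr* over *Atm* stays between 5.61 and 8.47.

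The genes that were lower after culture tended to have shorter transcripts richer in G and C. Across the 32 genes, the log2 change from GV to MII had a Pearson r of −0.55 and a Spearman rho of −0.47 with GC content, and of 0.57 and 0.59 with length on a log scale. For TubA20 against GV the Pearson r was −0.49 with GC content and 0.48 with length. Across 10135 genes these coefficients were −0.34 and 0.40 in MII and −0.30 and 0.36 in TubA20, so the pattern is not particular to the list. From MII to TubA10 the Pearson r was 0.04 with GC content and −0.32 with length in the list, and 0.19 and −0.34 across the 10135 genes. From MII to TubA20 it was −0.17 and 0.13 in the list, and −0.14 and 0.16 across the 10135 genes. All genes in such a coefficient share the same libraries and are not replicates, and no p-value is given. The 6 genes lower past 2-fold in TubA20 had a median GC content of 52.6% and a median length of 2349 bases, and the 4 that were higher had 43.2% and 4198 bases. *Fancg*, higher at 52.9% GC, and *Fancl*, lower at 41.0% GC, went against this order. The part of composition or length in the changes was not tested.

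**Figure D4:**
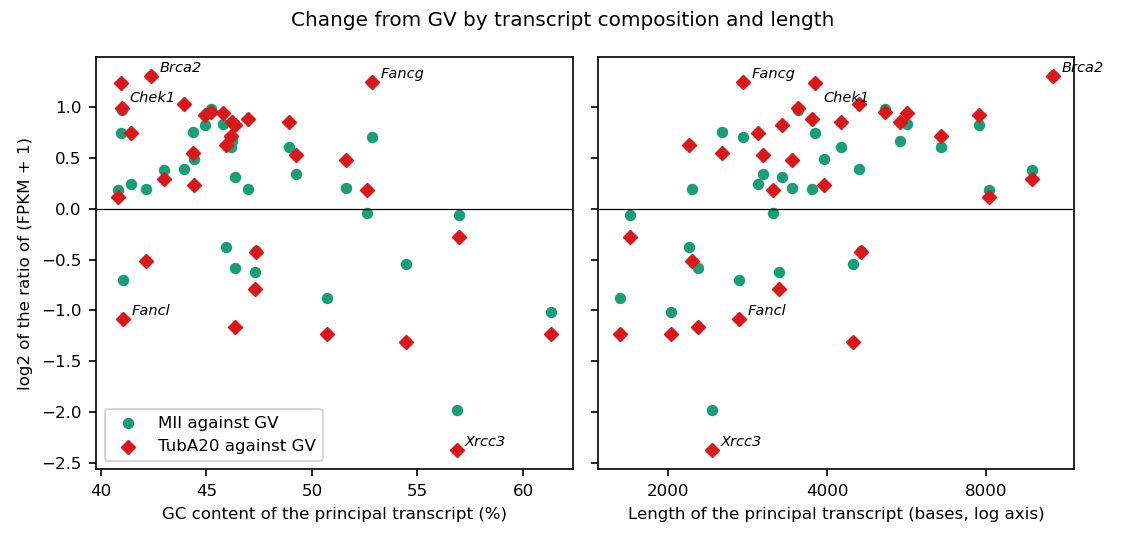
The log2 change from GV in MII (circles) and TubA20 (diamonds) is plotted for the 32 genes against the GC content in percent and the length in bases of the principal transcript. *Brca2*, with 10724 bases and 42.4% GC, lies at the top and *Xrcc3*, with 2422 bases and 56.9% GC, at the bottom.

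Other genes of these pathways were taken from a list of 67, of which 65 were in the table. It holds nucleases, helicases, ubiquitin factors and adaptors of the checkpoint. From GV to MII 9 were higher and 9 lower past 2-fold, and from GV to TubA20 16 were higher and 9 lower. These counts are 13.8% and 13.8% of the list in MII, where 6.5% and 17.2% of all genes were higher and lower, and 24.6% and 13.8% in TubA20, where the background was 16.2% and 23.9%. Their median log2 change was 0.21 in MII and 0.25 in TubA20. Against MII, 0 of the 65 passed 2-fold in either direction in TubA10 or TubA20, and the medians were −0.03 and 0.05. All genes passed it upward in 1.05% and 0.608% and downward in 0.235% and 5.22%.

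A list of 13 end joining genes, which seal breaks without a template, had medians of 0.17 in MII and −0.22 in TubA20 against GV, with 1 higher and 4 lower past 2-fold in TubA20. In 43 DNA replication genes the medians were −0.28 and −0.13, with 6 higher and 14 lower past 2-fold in TubA20. The shares higher and lower were 7.69% and 30.8% for end joining and 14.0% and 32.6% for replication, beside 16.2% and 23.9% of all genes. Against MII, *Fen1*, a flap nuclease, and *Rpa2*, a subunit of the protein that coats single strands, were the only genes of these 3 lists past 2-fold downward in TubA20. *Fen1* went from 7.31 FPKM in MII to 2.30 in TubA20 and *Rpa2* from 13.3 to 5.34, with log2 changes of −1.33 and −1.17. In TubA10 both were above MII, *Fen1* at 17.95 FPKM and *Rpa2* at 23.7, with log2 changes of 1.19, past 2-fold, and 0.78. The differences between the lists were not tested.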

How the data were processed

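Libraries were made from 100 oocytes each by oligo(dT) selection, sequenced from both ends and quantified by the authors, who deposited 1 table of FPKM values with a column for each of 4 libraries. Per the methods of the study, cufflinks was run on mm10 with the option for first-strand libraries. This counts opposite-strand neighbors apart only if the libraries kept the strand, which was not checked here. The submitters' processing notes name STAR 2.5.0, Cufflinks and Cuffdiff 2.2.1. Symbols and coordinates were joined by Ensembl identifier, with 165 of 21959 entries unmatched, and entries sharing a symbol were added up. Of the 32 genes, *Atr* alone shares exon bases with another gene on its strand, a small one. Many overlap exons of a gene on the opposite strand, among them *Xrcc3* (*Klc1*), *Fanca* (*Zfp276*), *Fancl* (*Vrk2*), *Fanci* (*Polg*), *Mre11a* (*Ankrd49*), *Msh6* (*Fbxo11*) and *Rad54l* (*Lrrc41*). *Brca2*, *Palb2*, *Rbbp8*, *Atr*, *Fancc*, *Fancd2*, *Fance*, *Fancf* and *Fancm* do so as well.

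Log2 ratios of FPKM + 1 were computed, with 2-fold as the threshold, and the fold script was tested on simulated data. Alternatives were a pseudocount of 0.1, a minimum mean of 1 FPKM and 3 scalings (median change of 0, equal sums, equal *Gapdh*). The count per fragment was judged from FPKM times kilobases, less an assumed 150 bases, in genes with 1 transcript of over 1000 bases, at the lowest 2% of values above 0.02. These depths and fragments are rough estimates that depend on these settings. A number of fragments speaks to counting error only, and variation between pools of oocytes was not measured. The principal transcript by APPRIS was used for sequence features, the longest among equals. All 32 genes are named, and of other lists the genes past 2-fold between TubA20 and MII that reach 5 FPKM in either. Genes of other lists named beyond this rule, among them the markers and those of the closing section, were chosen after their values were seen. The members and lists were chosen with earlier results of these data known. Computations used pandas 2.3.3, numpy 2.4.6 and scipy 1.17.1 under Python 3.11.15, with plots by matplotlib 3.10.9.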

Additional observations from a re-analysis of the deposited data

How the results depend on the processing

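No paired analysis was possible because each condition has 1 library, and no replicate could be left out. With a pseudocount of 0.1 FPKM, 4 genes were higher past 2-fold from GV to MII, 7 were higher from GV to TubA20 and 2 were lower from MII to TubA20. With equal FPKM sums, 3 genes were higher and 1 lower from GV to MII, and with equal *Gapdh* 5 were higher and 1 lower. Under each of the 3 scalings 0 genes were higher past 2-fold from MII to TubA20. With the median change set to 0, the median of the list was 0.33 from GV to TubA20 and 0.16 from GV to MII, and the latter was 0.45 with equal *Gapdh*. The other counts stayed within 1.5 times and the other medians within 0.2 of the reported ones, and no gene past 2-fold changed its direction. Below 2-fold, the directions of *Fancc*, *Fancf* and *Atr* against GV, of *Rbbp8*, *Brca1*, *Bard1* and *Fancm* in TubA20 against MII and of *Fancd2* in TubA10 against MII turned under at least 1 scaling. The depth limits *Dmc1* and *Fancf*, and *Chek2* in TubA20.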

Other observations

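Genes whose products work with CHK1 were in the list of other pathway genes. *Clspn*, the adaptor of CHK1, was at 74.0 FPKM in GV, 110 in TubA10, 180 in TubA20 and 135 in MII. *Timeless* and *Tipin*, which form a complex at the replication fork, were at 42.5 and 79.1 FPKM in GV, at 82.3 and 144 in MII and at 119 and 204 in TubA20. All 3 were, like *Chek1*, lowest in GV and highest in TubA20, and were picked out after their values had been seen. Genes of other roles, among them *Msh6*, *Fancm* and *Fancg*, had the same order, so it is not particular to genes that work with CHK1. The share of all genes with this order was not counted. The genes of the clamp that activates ATR parted, since *Rad9a* went from 7.01 FPKM in GV to 2.71 in TubA20, *Hus1* from 11.1 to 29.8 and *Rad1* from 19.2 to 39.99. *Topbp1* and *Rad17*, which work with the clamp, had log2 changes of 1.26 and 0.84 from GV to TubA20, and of 1.22 and 0.65 from GV to MII. *Atrip*, the partner of ATR, went from 4.18 FPKM in GV to 3.17 in TubA20 and was at 3.65 in MII. The lowest and highest changes from GV to TubA20 in that list were those of *Babam1* (−3.27), a subunit of a BRCA1-bound complex, and *Usp1* (1.90), which removes ubiquitin from FANCD2. From GV to MII the changes of these genes were −2.35 and 1.62.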
